A study of Canis lupus familiaris with 5 samples.

Results

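The chromatin genes HMGA1 and HMGA2 and the RNA-binding protein genes IGF2BP1, IGF2BP2 and IGF2BP3 were followed in nuclei of dog cephalic vein. These 5 genes, of 35531 named features, were chosen from earlier results of the same data, so their UMI counts and the shares of nuclei that held them describe the choice and carry no test; the rule names the genes and has no threshold. Each gene was found once in the feature tables.

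Vein taken for a bypass is distended during harvest and then meets arterial flow. Nuclei of male mongrel dogs of about 25 kg were sequenced from 3 states of the vein, with 2 dogs in all and no age given. The grafted vein came from dog 1 and had served as a carotid bypass for 24 h after harvest with distension, with systemic bivalirudin infused at surgery (n = 1 library). The distended vein of dogs 1 and 2 was excised after injection of saline with papaverine and bivalirudin, in a harvest of about 30 min (n = 2). The control vein of the same dogs was an undistended segment (n = 2). All segments were cut during surgery under anaesthesia and snap-frozen. No library replicates the graft, so every difference from grafted vein compares that library with the others and has no replicate check of its own.

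HMGA1 and HMGA2 are architectural chromatin proteins that bind the minor groove of AT-rich DNA. The IGF2BP proteins bind mRNAs, among them m6A-marked ones, and affect their stability, transport and translation. Both families are abundant in the embryo, low in most adult tissues and raised in many tumours. In mouse and human cells the let-7 microRNAs repress HMGA2 and the IGF2BP genes, LIN28 proteins block let-7 maturation, and HMGA2 protein acts on the IGF2BP2 gene.

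The 5 libraries held between 242 and 2705 barcodes and between 410604 and 11302558 UMIs, where a UMI marks 1 captured RNA molecule. Nuclei with at least 100 detected genes were kept, 6855 of 7391 barcodes. The 4 features LOC119877772 to LOC119877775 took 3.00% of UMIs in grafted vein, 39.8% and 28.0% in distended vein of dogs 1 and 2, and 71.0% and 65.2% in control vein of dogs 1 and 2, so levels are given as UMIs per 1000000 UMIs outside them, written CPM. The median nucleus held 2350 such UMIs in grafted vein, 545.5 and 498 in distended vein, and 424 and 274 in control vein. Distended dog 2 stood apart, since 31.1% of its 241 nuclei fell into 7 clusters in which grafted nuclei were the majority, against 0.522% in distended dog 1, 0.392% in control dog 1 and 3.09% in control dog 2. The source of that likeness was not tested, and results that rest on this library are given with and without it. The grafted library shared 4 barcodes with another library, against 2 in distended dog 1, 0 in distended dog 2, 3 in control dog 1 and 1 in control dog 2.

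HMGA2, the family member with the most UMIs in the series, was read in 797 of 2705 grafted nuclei and in few nuclei elsewhere. Its UMIs numbered 2837 in grafted vein, 10 and 49 in distended vein of dogs 1 and 2, and 2 and 4 in control vein of dogs 1 and 2. The level was 260.3 CPM in grafted vein (95% Poisson interval 251 to 270.1), 6.68 and 175.3 in distended vein, and 4.00 and 11.8 in control vein. Grafted vein was thus highest, distended dog 2 came next, and the intervals of distended dog 1 and both controls overlapped.

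The pooled HMGA2 level in grafted vein was 7.84 times that of distended vein (exact 95% counting interval 6.06 to 10.3) and 36.4 times that of control vein (16.7 to 99.3). Within dog 1 alone, grafted vein held 39.0 times the distended level (21.2 to 81.4) and 65.0 times the control level (18.0 to 537.2). Distended vein held 4.64 times the control level (2.01 to 13.2), and this rested on 1 library. Without distended dog 2 the ratio was 0.934 (0.307 to 3.13), and the grafted to distended ratio became 39.0. Without distended dog 1 those ratios were 24.5 (10.5 to 70.0) for distended against control and 1.49 (1.12 to 2.01) for grafted against distended. On the scale of edgeR's log2 difference over the library sums, grafted minus distended was 1.57 (SE 1.33), grafted minus control was 4.95 (SE 1.51) and distended minus control was 3.38 (SE 1.38). With the dog as a replicate block these were 4.47 (SE 1.39), 6.97 (SE 1.35) and 2.50 (SE 1.15). Leaving out a control library moved the ratios to control vein too: without control dog 1 they were 22.1 for grafted and 2.82 for distended vein, and without control dog 2 they were 65.0 and 8.29. Intervals throughout cover counting error only. In whole-vein sums, more nuclei with a gene's RNA and more RNA per nucleus cannot be told apart.

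**Figure D1:**
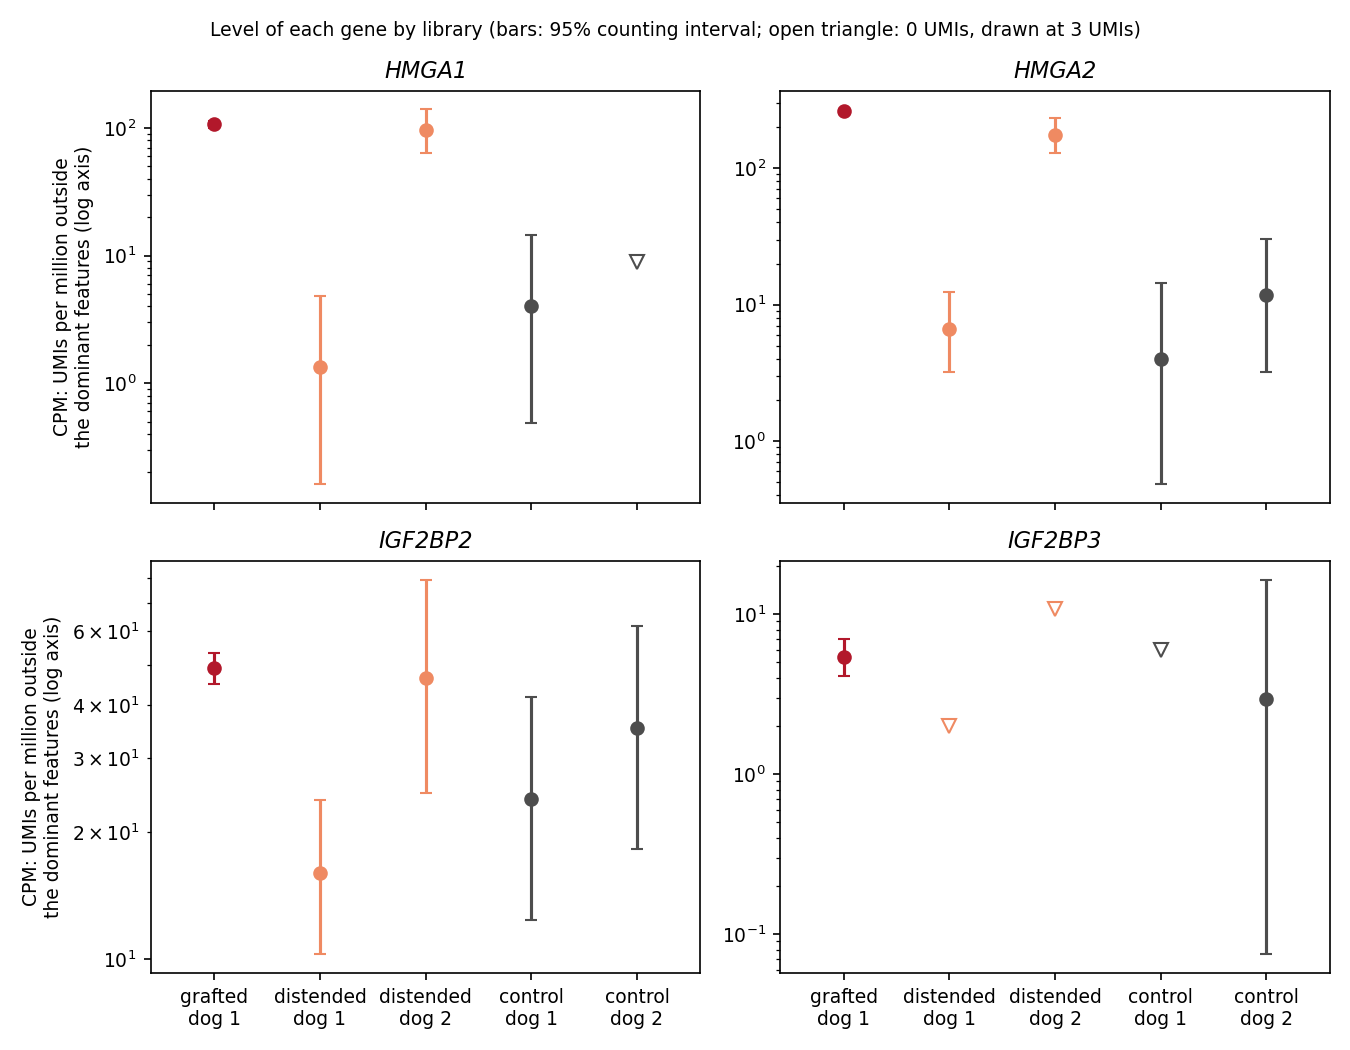
Level of HMGA1, HMGA2, IGF2BP2 and IGF2BP3 in each library, in CPM on a log axis, with 95% Poisson intervals and open triangles at the limit set by 3 UMIs where none was read. HMGA1 and HMGA2 are high in grafted vein and distended dog 2 and low in the other 3 libraries, while the IGF2BP2 levels run from 16 to 49.0 CPM.

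HMGA1, the widely used member of the pair in growing cells, had 1166 UMIs in grafted vein, 2 and 27 in distended vein of dogs 1 and 2, and 2 and 0 in control vein of dogs 1 and 2. The level was 107.0 CPM in grafted vein (101 to 113), 1.34 and 96.6 in distended vein, and 4.00 in control dog 1. For control dog 2 a count of 0 allows up to 8.84 CPM. Grafted vein and distended dog 2 did not differ beyond their counting intervals, and both lay above the other 3 libraries.

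The pooled HMGA1 level in grafted vein was 6.56 times that of distended vein (4.54 to 9.83) and 44.9 times that of control vein (12.4 to 371), where control vein held 2 UMIs. Without distended dog 1 the grafted to distended ratio was 1.11 (0.757 to 1.69), and without distended dog 2 it was 80.1 (22.1 to 662). Distended vein held 6.85 times the control level (1.73 to 59.2), and without distended dog 2 both groups had 2 UMIs, which gives no ratio. HMGA1's grafted level was 26.7 times control without control dog 2, and at least 12.1-fold higher without control dog 1.

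IGF2BP2, the family member with known roles in adult tissue, was read in every library. It had 534 UMIs in grafted vein, 24 and 13 in distended vein, and 12 and 12 in control vein. Its level was 49.0 CPM in grafted vein (44.9 to 53.3), 16 and 46.5 in distended vein of dogs 1 and 2, and 24.0 and 35.4 in control vein of dogs 1 and 2. Distended dog 2 and control dog 2 overlapped with grafted vein, and distended dog 1 and control dog 1 lay below it.

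The IGF2BP2 level in grafted vein was 2.35 times that of distended vein (1.69 to 3.38) and 1.71 times that of control vein (1.14 to 2.70). Without distended dog 1 the first ratio was 1.05 (0.611 to 1.99), and without control dog 1 the second was 1.39 (0.787 to 2.70). Distended vein held 0.728 times the control level (0.424 to 1.27), without distended dog 1 1.63 times (0.760 to 3.32). The log2 difference by edgeR was 0.67 (SE 0.94) for grafted minus distended, 0.57 (SE 0.94) for grafted minus control and -0.10 (SE 0.84) for distended minus control, each smaller than its standard error. The total chosen as the base mattered here, because keeping the 4 dominant features in it gave 5.34 for grafted against control (3.55 to 8.41) and turned distended against control to 1.45 (0.842 to 2.53).

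IGF2BP3 was read in 55 grafted nuclei with 59 UMIs, 5.41 CPM (4.12 to 6.98). No UMI was read in distended vein of either dog or in control dog 1, and 1 was read in control dog 2. Those zeros allow up to 2.00 and 10.7 CPM in distended dogs 1 and 2 and 6.0 in control dog 1. Grafted vein was at least 3.21-fold higher than distended vein against a floor of 3 UMIs over the group, a bound that rests on distended dog 1, while the ratio to control vein, 4.54, had an interval of 0.784 to 182. The grafted level lay under what the zeros of distended dog 2 and control dog 1 allow, so a difference from those libraries was not detectable at this depth. IGF2BP1, the most strictly embryonic member, had 1 UMI in grafted vein, in a neutrophil-like nucleus, and 0 in the other 4 libraries.

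The share of nuclei with a UMI followed depth as well as level. HMGA2 was read in 29.5% of grafted nuclei (exact Clopper-Pearson 95% interval 27.8 to 31.2), 0.427% and 7.47% of distended nuclei in dogs 1 and 2, and 0.131% and 0.193% of control nuclei. After every nucleus was thinned to 200 UMIs outside the dominant features, with 1 grafted, 61 and 2 distended, and 108 and 287 control nuclei left out as shallower, the HMGA2 shares were 6.10% in grafted vein, 0.147% and 3.35% in distended vein, and 0.152% and 0.267% in control vein. HMGA1 was read in 10.8% of grafted nuclei, 0.0949% and 4.56% of distended nuclei, and 0.261% and 0 of control nuclei, and after thinning in 1.11%, 0.837% and 0.152% of nuclei in grafted vein, distended dog 2 and control dog 1. For HMGA2, grafted vein and distended dog 2 stayed above the other 3 libraries after thinning. For IGF2BP2 the unthinned shares were 12.3% in grafted vein, 1.09% and 4.15% in distended vein, and 1.31% and 0.965% in control vein. Thinned, they were 0.925%, 0.391% and 1.26%, and 0.152% and 0.534%, and the interval of grafted vein overlapped with those of the other 4 libraries.

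Nuclei were grouped with the 5 genes left out of the clustering, which gave 16 clusters named by marker genes where the markers allowed it. Grafted nuclei fell mainly into cluster 1 (965 nuclei, endothelial-like), cluster 3 (776, fibroblast-like), cluster 7 (359, unnamed, led by NRG1 and the leukocyte gene PTPRC), cluster 8 (250, unnamed), cluster 9 (178, neutrophil-like), cluster 10 (130, unnamed, led by SH3GL3 and NEBL) and cluster 15 (34, smooth muscle-like). Cluster 8 was led by ribosomal protein genes such as RPL15 and RPS12 and by ACKR1, the chemokine-binding receptor of venules. Ribosomal protein transcripts were 18.0% of its UMIs in the graft, against 0.612% to 1.04% in the other 6 clusters. By their own summed markers, 78.4% of its grafted nuclei scored as endothelial-like, but the cluster as a whole had as many epithelial as endothelial markers and was not named.

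HMGA1 and HMGA2 were distributed differently over these clusters. Cluster 8 held 1022 of the 1166 grafted HMGA1 UMIs, in 159 of its 250 nuclei, at 314.5 CPM (295.5 to 334.4). The other clusters had 18.4 (cluster 1), 21.0 (cluster 3), 23.0 (cluster 7), 17.5 (cluster 9) and 6.01 (cluster 10) CPM, with overlapping intervals, and cluster 15 had 0 UMIs. HMGA2 reached 631.6 CPM in cluster 3 (594.1 to 670.9), 321.5 in cluster 9 (287.7 to 358.1) and 278.8 in cluster 1 (263.1 to 295.2). It stood at 64.9 in cluster 8 (56.5 to 74.3), 75.2 in cluster 7, 90.2 in cluster 10 and 32.9 in cluster 15, whose intervals overlapped. Cluster 8, highest for HMGA1, was therefore among the low ones for HMGA2.

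**Figure D2:**
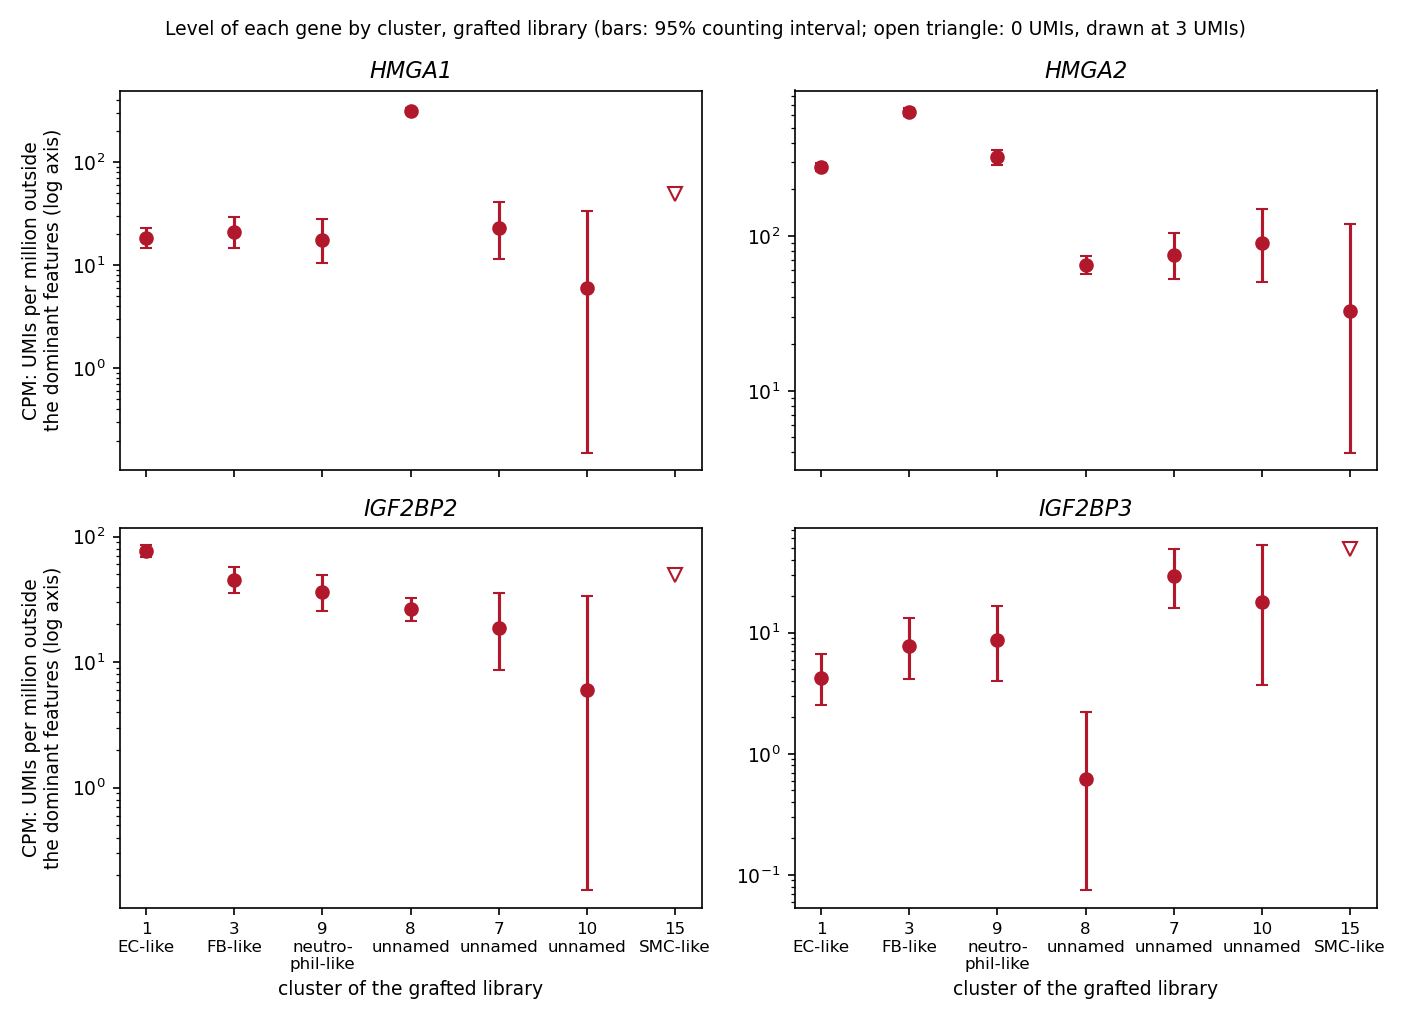
Level of HMGA1, HMGA2, IGF2BP2 and IGF2BP3 in the 7 main clusters of the grafted library, in CPM on a log axis, with 95% Poisson intervals and open triangles at 3 UMIs where none was read (EC, endothelial; FB, fibroblast; SMC, smooth muscle). HMGA1 peaks in cluster 8 at 314.5 CPM, HMGA2 in cluster 3 at 631.6, and IGF2BP2 in cluster 1 at 76.5.

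Distended dog 2 also had nuclei in these clusters. There, cluster 8 had 10 nuclei, which carried 23 of that library's 27 HMGA1 UMIs, and ribosomal protein transcripts made up 23.7% of their UMIs. Of its 49 HMGA2 UMIs, 32 lay in 8 of the 18 nuclei of cluster 1, at 651.4 CPM (445.5 to 919.5). Cluster 3, highest for HMGA2 in the graft, had 1 HMGA2 UMI in 38 nuclei of distended dog 2, at 43.4 CPM (1.10 to 241.9), which overlapped with its cluster 8 at 30.4 CPM (6.27 to 88.8) from 3 UMIs. A further 8 HMGA2 UMIs lay in 3 of 107 nuclei of cluster 2, an endothelial-like cluster with nuclei of all 5 libraries. In cluster 2 grafted vein had 4 HMGA2 UMIs in 1 of 5 nuclei, distended dog 1 had 0 HMGA2 UMIs in 196 nuclei, control dog 1 had 0 in 382 and control dog 2 had 0 in 155, which allows shares of up to 1.53%, 0.785% and 1.94% of nuclei with a UMI. With cluster 8 left out, the HMGA1 level was 18.8 CPM in grafted vein, 1.34 and 22.1 in distended vein, and 2.02 in control dog 1.

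The HMGA1 level of cluster 8 was high at every depth. Its nuclei were very unequal, with 111 of 250 above 8000 UMIs and 56 at or below 1000, and 0 of the 250 were marked as doublets. Whether these barcodes hold nuclei alone or also cytoplasm was not tested. Nuclei of at most 1000 UMIs had 461 HMGA1 CPM (273 to 729), and nuclei above 16000 UMIs had 316 (295 to 338). In cluster 1 the HMGA1 level was 48.8 CPM (22.3 to 92.5) in nuclei of 1000 to 2000 UMIs and 11.9 (5.42 to 22.5) in those of 8000 to 16000. Over the same depths the ribosomal protein share of cluster 1 was 1.03% and 0.454%. Cluster 3 had 29.1 HMGA1 CPM (15.5 to 49.8) at 1000 to 2000 UMIs and 13.7 (4.455 to 32.0) at 4000 to 8000. No fall was seen in clusters 7 and 9. Cluster 9 had 0 HMGA1 UMIs at 1000 to 2000 and 13.9 CPM (3.79 to 35.6) at 8000 to 16000. Its ribosomal protein share was 1.26% and 0.709% there. Cluster 7 had 9.4 CPM up to 1000 UMIs and 23.5 at 2000 to 4000. Intervals overlapped within each of clusters 3, 7 and 9.

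HMGA1 varied less between clusters when set against ribosomal protein UMIs. Per 1000 ribosomal protein UMIs there were 1.75 HMGA1 UMIs in cluster 8, 3.01 in cluster 1, 2.01 in cluster 3, 2.27 in cluster 7, 2.08 in cluster 9 and 0.642 in cluster 10, the last from 1 UMI. For HMGA2 the same ratio ran from 0.36 in cluster 8 to 60.5 in cluster 3. Thinning to 1000 UMIs left out the shallower nuclei: 33 of 965 in cluster 1, 127 of 776 in cluster 3 and 147 of 359 in cluster 7. It also left out 56 of 250 in cluster 8, 3 of 178 in cluster 9 and 66 of 130 in cluster 10. Among the nuclei kept, HMGA1 was read in 26.3% in cluster 8 (20.2 to 33.1). In clusters 1, 3, 7 and 9 it was read in 2.47%, 2.46%, 3.30% and 2.29%. The intervals of those 4 clusters overlapped. The part of RNA from outside the nuclei in them was not tested.

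**Figure D3:**
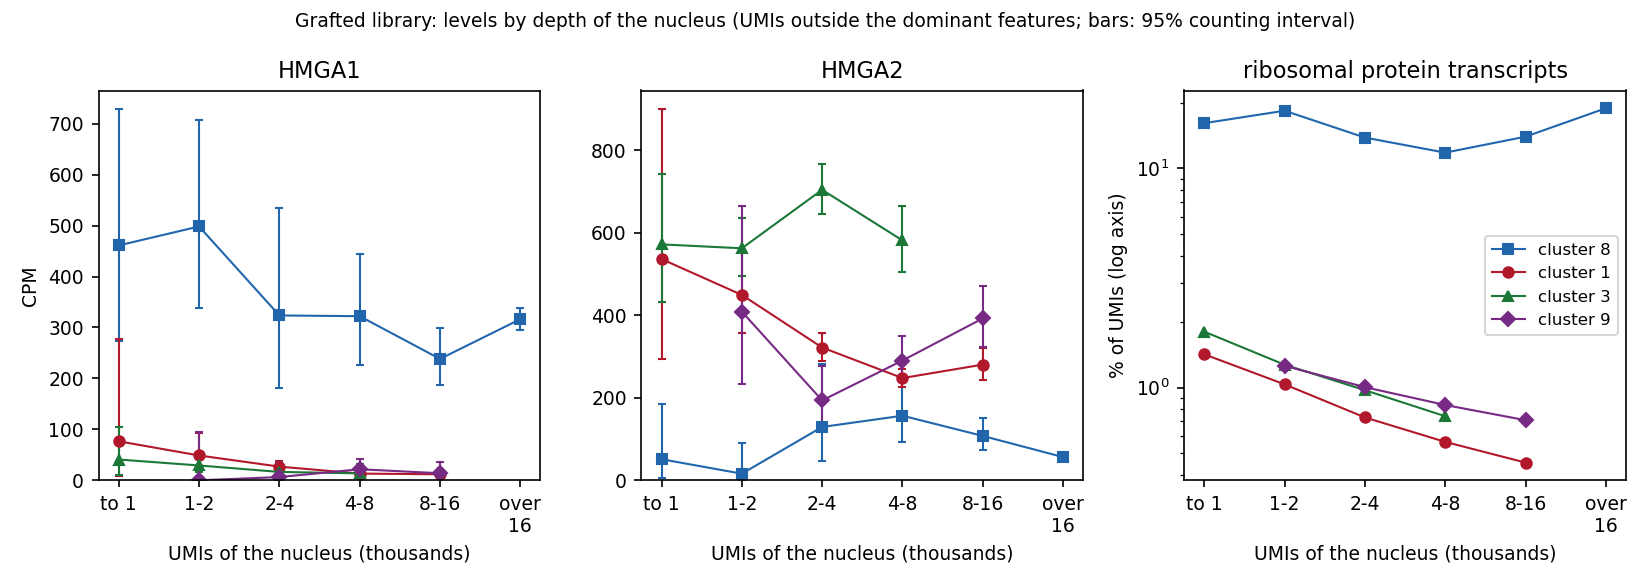
Levels of HMGA1 and HMGA2 (CPM, 95% Poisson intervals) and the share of ribosomal protein transcripts (log axis) in grafted nuclei of clusters 8, 1, 3 and 9, split by the UMIs of the nucleus outside the dominant features. Cluster 8 lies above the others for HMGA1 and for ribosomal protein transcripts at each depth where they are drawn. At up to 1000 UMIs its HMGA1 interval overlaps with that of cluster 1. For HMGA2 it lies below cluster 3, which is drawn up to 8000 UMIs. Above 16000 UMIs cluster 8 alone is drawn.

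For HMGA2 the shares differed between clusters at equal depth, among the nuclei deep enough to be thinned. Thinned to 1000 UMIs, it was read in 30.4% of nuclei in cluster 3 (26.8 to 34.1), 20.0% in cluster 9 (14.3 to 26.7), 15.9% in cluster 1 (13.6 to 18.4), 8.25% in cluster 8 (4.79 to 13.1), 3.77% in cluster 7 (1.64 to 7.30) and 4.69% in cluster 10. Over all its nuclei, the leukocyte-marked cluster 7 had a median of 1140 UMIs, against 1922 in cluster 3 and 3865 in cluster 1. Whether the HMGA2 UMIs of any cluster came from its own nuclei or from RNA outside them was not tested. Unthinned, the shares were 42.1% in cluster 3, 50.0% in cluster 9, 29.4% in cluster 1 and 7.52% in cluster 7.

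Cluster 9 carried the neutrophil genes IL1R2, CSF3R and S100A12 among its leading genes, but also markers of other types. Summed endothelial markers stood at 3704 CPM there, against 7680 in cluster 1 and 836 in cluster 7, and summed fibroblast markers at 868, against 3242 in cluster 3. Of its 178 nuclei, 87 scored as neutrophil-like by their own markers and 70 as endothelial-like. HMGA2 stood at 281.1 CPM in the first set and 276.7 in the second, with overlapping intervals. A further 13 nuclei scored as fibroblast-like and held 60 HMGA2 UMIs at 1067 CPM (813.9 to 1373), above the intervals of both other sets. Those UMIs lay in 7 nuclei, with up to 23 in a nucleus, so this level rests on few nuclei. The share of nuclei with HMGA2 was 53.85% there (25.1 to 80.8). It was 47.1% in the neutrophil-like and 55.7% in the endothelial-like set. Doublet calls fell on 5 of the 178 nuclei. The part of RNA from other cells in this level was not tested.

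HMGA1 and HMGA2 UMIs were unevenly spread among nuclei. In grafted vein 31 nuclei with 10 or more HMGA1 UMIs held 51.0% of them, with up to 52 in a nucleus, and 56 nuclei held 29.2% of the HMGA2 UMIs, with up to 41. IGF2BP2 reached at most 9 and IGF2BP3 at most 2. Of 291 nuclei with HMGA1 and 797 with HMGA2, 112 had both. Nuclei with HMGA1 had a median of 6336 UMIs and those without it 2341.5, so the overlap was counted among nuclei of unequal depth. Thinned to 1000 UMIs, the correlation of HMGA1 and HMGA2 counts over 2252 grafted nuclei was -0.03, and for HMGA2 and IGF2BP2 it was 0.00, given as descriptions of nuclei of 1 library.

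**Figure D4:**
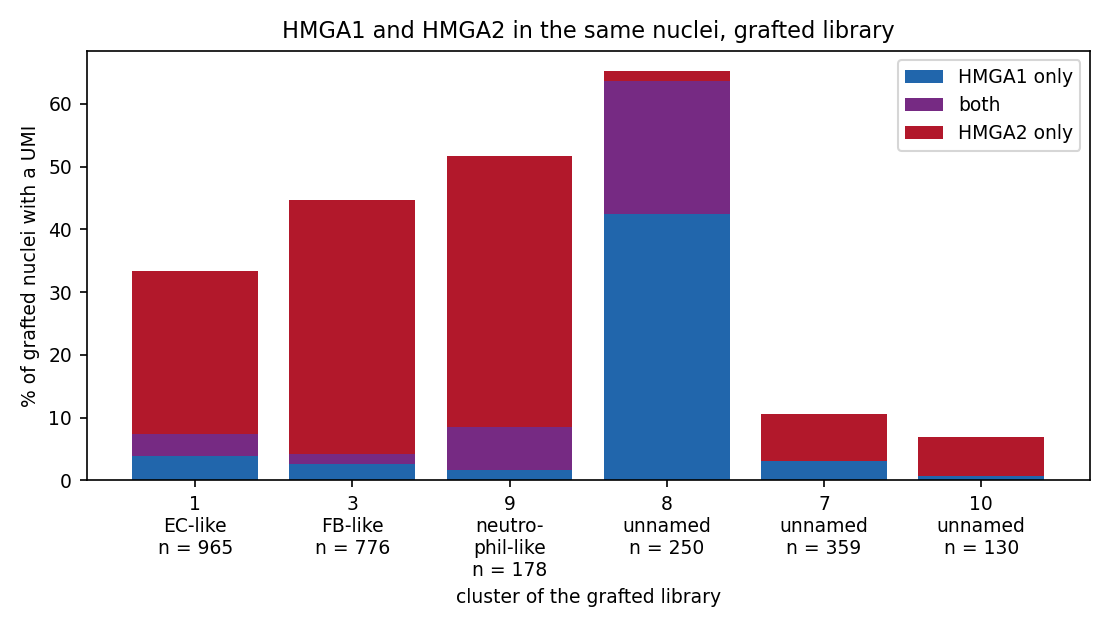
Share of grafted nuclei with HMGA1 only, both genes or HMGA2 only, by cluster, unthinned, with the number of nuclei under each bar (EC, endothelial; FB, fibroblast). In cluster 8, 106 nuclei had HMGA1 only, 53 had both and 4 had HMGA2 only, whereas in cluster 3, 20 had HMGA1 only, 12 had both and 315 had HMGA2 only.

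IGF2BP2 and IGF2BP3 had their own order over the clusters. IGF2BP2 was highest in cluster 1 at 76.5 CPM (68.4 to 85.3), followed by cluster 3 at 45.5 (35.9 to 57.0) and cluster 9 at 36.0 (25.4 to 49.7), which overlapped, and by cluster 8 at 26.5 (21.2 to 32.7) and cluster 7 at 18.8 (8.60 to 35.7). At 1000 UMIs it was read in 6.44% of nuclei in cluster 1 (4.95 to 8.21) and 4.47% in cluster 3 (3.01 to 6.355), which overlapped. It was read in 2.06% in cluster 8 (0.565 to 5.195), 1.71% in cluster 9 (0.355 to 4.93) and 0.472% in cluster 7 (0.0119 to 2.60). IGF2BP3 stood at 29.3 CPM in cluster 7 (16 to 49.1) and 18.0 in cluster 10 (3.72 to 52.7), which overlapped, and was read in 2.36% and 3.13% of their nuclei at 1000 UMIs. It stood at 4.25 in cluster 1 (2.52 to 6.72), 7.78 in cluster 3 and 8.77 in cluster 9. In cluster 8, 0.615 CPM (0.0745 to 2.22) rested on 2 UMIs of IGF2BP3 in 1 nucleus.

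Within endothelial-like nuclei, HMGA2 had 1185 UMIs in 971 grafted nuclei, 2 in 495 and 41 in 138 distended nuclei of dogs 1 and 2, and 0 in 439 and 0 in 327 control nuclei. The levels were 279.3 CPM in grafted vein, and 4.00 and 315.1 in distended dogs 1 and 2. Grafted vein was at least 47.0-fold higher than control vein, and 4.10 times distended vein (3.02 to 5.69). Without distended dog 1 that ratio was 0.886, and without distended dog 2 it was 69.9. Distended vein was at least 11.5-fold higher than control vein, through the 41 UMIs of distended dog 2, since distended dog 1 had fewer than the floor of 3. Without control dog 1 these bounds against control vein were 11.98-fold for grafted and 2.93-fold for distended vein, and without control dog 2 they were 35.0-fold and 8.55-fold. The classes were held by different clusters: cluster 1 made up nearly all grafted endothelial-like nuclei, and clusters 2 and 6 most of those in distended and control vein.

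Within fibroblast-like nuclei, HMGA2 had 1055 UMIs in 777 grafted nuclei, 8 in 1220 and 1 in 52 distended nuclei, and 0 in 53 and 0 in 396 control nuclei. The level was 631.1 CPM in grafted vein, and 10.4 and 35.5 in distended vein. Grafted vein held 56.0 times the distended level (29.4 to 123) and at least 25.7 times the control level. Distended dog 2, high for HMGA2 in endothelial-like nuclei, had 1 HMGA2 UMI among its fibroblast-like nuclei, with an interval of 0.899 to 198 CPM. Without control dog 2 the bound against control vein was 2.60-fold, and without control dog 1 it was 23.1-fold. The grafted to distended ratio without distended dog 1 was 17.8 (3.18 to 702.6), from 1 distended UMI, and without distended dog 2 it was 60.8. Cluster 3 held nearly all grafted nuclei of this class, and clusters 0 and 5 most of the others.

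HMGA1 within these classes stood at 18.4 CPM in endothelial-like and 20.9 in fibroblast-like nuclei of grafted vein. Within dog 1 the grafted level was 4.601 times the distended level (1.23 to 38.7) in endothelial-like nuclei, from 2 distended UMIs. In fibroblast-like nuclei of dog 1 it was at least 5.38-fold higher. Distended dog 2 had 30.7 CPM in endothelial-like nuclei (8.38 to 78.7, from 4 UMIs), an interval that held the grafted level. Its 52 fibroblast-like nuclei had 0 UMIs of HMGA1, which allows up to 106.5 CPM. When each nucleus was classed by its own markers instead, the nuclei of cluster 8 largely joined the endothelial-like class, and its grafted level became 134.7. IGF2BP2 in endothelial-like nuclei was 76.4 CPM in grafted vein (68.3 to 85.2), 18.0 and 69.2 in distended vein of dogs 1 and 2, and 26.6 and 69.9 in control vein of dogs 1 and 2. All libraries of dog 2 thus overlapped with grafted vein. Grafted vein held 2.68 times the distended level (1.67 to 4.57) and 2.03 times the control level (1.28 to 3.42), and within dog 1 those ratios were 4.25 (2.21 to 9.37) and 2.87 (1.54 to 6.05). In fibroblast-like nuclei IGF2BP2 was 46.1 CPM in grafted vein, and 11.7 and 71.0 in distended vein, the last from 2 UMIs. Control dog 1 had 0 UMIs there and control dog 2 had 1.

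**Figure D5:**
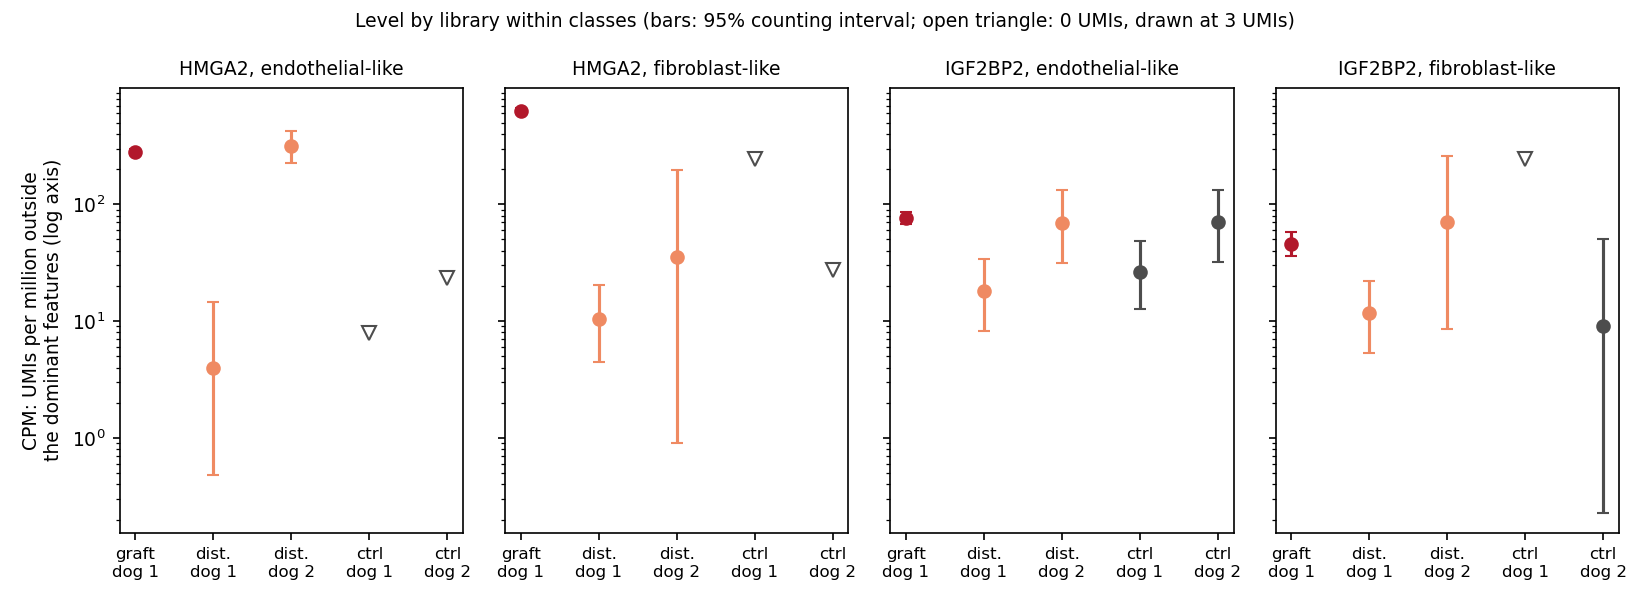
HMGA2 and IGF2BP2 levels in endothelial-like and fibroblast-like nuclei of each library, in CPM on a shared log axis, with 95% Poisson intervals and open triangles at 3 UMIs where none was read. HMGA2 in endothelial-like nuclei is near 300 CPM in grafted vein and distended dog 2 alone, and IGF2BP2 is read in endothelial-like nuclei of all 5 libraries.

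The genes whose levels over 25 sums of class or unnamed cluster by library ran closest to each member were found by Pearson's r of log2(level + 10) among 10162 named genes, as a description, since the sums share libraries and depth. For HMGA1 they were TOR1A (0.98), CHCHD1 (0.97), NME1 (0.97), POP5 (0.96) and ESM1 (0.95). Among these sums HMGA1 was high in grafted cluster 8 alone, at 314.5 CPM. The next highest sum, endothelial-like nuclei of distended dog 2, had 30.7 CPM. The r values for HMGA1 therefore rest largely on the sum of grafted cluster 8. NME1, a nucleoside diphosphate kinase gene, had 2432 UMIs in grafted vein, 2 and 64 in distended vein, and 1 and 0 in control vein. For HMGA2 they were PDSS1 (0.85), EML4 (0.82), SNHG3 (0.79), RBMS1 (0.78) and CSF3 (0.78), the last the granulocyte growth factor gene. For IGF2BP2 they were CCNK (0.81), MIPOL1 (0.77), XPNPEP1 (0.77), SRSF1 (0.76) and RNF214 (0.74). Between members r was 0.51 for HMGA1 and HMGA2, 0.28 for HMGA2 and IGF2BP2 and 0.25 for HMGA1 and IGF2BP2.

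Pathway genes around the members were read in 6 lists, with 89 of their 91 genes in the feature tables. They were tested by edgeR's quasi-likelihood test over all genes with Benjamini-Hochberg adjustment at 0.05. The lists, like the members, were chosen with earlier results of these data known. The calls and adjusted p-values of list genes are therefore not independent evidence. In whole-vein sums, 0 of 80 tested list genes passed in any comparison, where edgeR called 0% of all 13170 genes in grafted against distended, 0% in grafted against control and 0% in distended against control. At an unadjusted p under 0.05 those comparisons had 725, 1162 and 186 genes, and DESeq2 called 32, 116 and 1. Without distended dog 1 edgeR called 5 of 77 list genes in grafted against control, where 5.31% of all genes passed.

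In endothelial-like sums 5 of 73 tested list genes passed in grafted against control, where 3.79% of all genes did. 4 of them were of the cycling list and rose against control vein. Distended dog 2 was near grafted vein for ATAD2 (116.3 against 120.5 TMM-scaled CPM) and MELK (52.9 against 56.1). It was lower for DIAPH3 (81.0 against 197.8), and for BRIP1 it had 49.3 against 62.2. These values of distended dog 2 rest on few UMIs: 33 of ATAD2, 15 of MELK, 14 of BRIP1 and 23 of DIAPH3. Distended dog 1 had 25.8 of ATAD2, 10.1 of MELK, 7.84 of BRIP1 and 15.7 of DIAPH3. DIAPH3, a formin of cell division, had 197.8 TMM-scaled CPM in grafted vein, against 6.08 and 8.89 in control vein (log2 difference 4.80, SE 0.91, edgeR adjusted p = 0.00208). ATAD2, a chromatin ATPase, had 120.5 in grafted vein, against 12.2 and 13.3 in control vein (log2 difference 3.25, SE 0.84, edgeR adjusted p = 0.0221). MELK, a mitotic kinase, and BRIP1, a DNA repair helicase, also rose, with edgeR adjusted p of 0.0344 and 0.00989, BRIP1 with 522 UMIs in grafted and 1 in control vein. The remaining called list gene, CCND2 (cyclin D2), fell to 10.4 TMM-scaled CPM in grafted vein, against 138.4 and 48.9 in control vein (log2 difference -3.21, SE 0.88). Distended vein of dogs 1 and 2 had 34.7 and 31.7, also below control vein. These calls moved with the settings: with the dog as a replicate block 9 of 73 list genes passed, where 5.22% of all genes did. Without control dog 2 edgeR called 0 list genes and 0 of all 11071 genes (1486 at an unadjusted p under 0.05), and with nuclei classed singly 0 list genes and 0 of 10936 genes (1176 at an unadjusted p under 0.05). MKI67 and TOP2A, the list's usual division markers, did not pass (log2 differences -0.11, SE 1.81, and 3.48, SE 1.93).

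In grafted against distended endothelial-like sums 0 list genes passed (1.43% of all genes). With the replicate block 2 passed there, IL6 and DIAPH3 (1.84% of all genes). In distended against control 0 passed (0.0193% of all genes). The median log2 difference of the 15 tested cycling genes was 1.30, 3.48 and 2.38 in grafted against distended, grafted against control and distended against control, beside 0.05, 0.07 and -0.00 over all genes. The medians that involve distended vein moved with its library: without distended dog 2 they were, over 16 tested genes, 2.41 in grafted against distended, 3.47 in grafted against control and 1.02 in distended against control. Over 14 genes, without distended dog 1, they were 0.28, 3.45 and 2.92. The list's summed level by cluster did not follow HMGA1: it was 575.4 CPM in cluster 8, against 1298 in cluster 1, 550.8 in cluster 3 and 288.5 in cluster 7.

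In fibroblast-like sums 2 of 59 list genes passed in grafted against distended (2.9% of all genes). SNAI1, a transcription repressor that HMGA2 induces in mouse mammary cells, rose, with 175 UMIs in grafted vein and 2 and 0 in distended vein (ratio of pooled levels 41.8, 11.4 to 348; edgeR adjusted p = 0.0430). MKI67, the proliferation marker, fell, with 3 UMIs in grafted vein and 50 and 0 in distended vein (ratio 0.0287, 0.00572 to 0.0888). The 0 counts of distended dog 2 came from 52 nuclei and allow up to 106.5 CPM. That limit lies above the grafted SNAI1 level of 104.7 CPM and the pooled distended MKI67 level of 62.6 CPM. The differences of SNAI1 and MKI67 therefore rest on distended dog 1. With the dog as a replicate block neither passed and IL6 alone did, and without distended dog 1 neither passed. In grafted against control 2.95% of all genes and 0 list genes passed, and in distended against control 0.0272% and 0.

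LIN28A and LIN28B, the blockers of let-7, were near 0 in every library. LIN28A had 13 UMIs in grafted vein, 3 and 0 in distended vein, and 0 and 1 in control vein. LIN28B had 9 in grafted vein, 0 and 0 in distended vein, and 1 and 0 in control vein. The uridylyltransferase genes TUT4 and TUT7, the list's most abundant with AGO2, had 202.6 and 189.7 CPM in grafted vein. In distended vein TUT4 had 343.2 and 171.7 and TUT7 398 and 271.9, and in control vein TUT4 had 252.2 and 300.5 and TUT7 212.2 and 471.4, so that the groups overlapped for TUT4. AGO2, an effector of microRNAs, had 186.1 in grafted vein, 137.5 and 118.0 in distended vein, and 120.1 and 126.7 in control vein. None of the list's tested genes passed in any comparison.

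Among genes linked to IGF2BP proteins, IGF2, the client that gave the family its name, had 0 UMIs in all 5 libraries. CD44, ACTB and YBX1 had the most UMIs of that list. YBX1, an mRNA-binding partner, had 436.3 CPM in grafted vein, 96.2 and 701.1 in distended vein, and 164.1 and 114.9 in control vein. CD44, a hyaluronan receptor, had 574.0 in grafted vein, 617 and 382.8 in distended vein, and 42.0 and 936.9 in control vein, and its groups overlapped. Of the m6A list HNRNPA2B1, FTO and ZC3H13 had the most UMIs, and 0 of its tested genes passed in any comparison. FTO, an m6A eraser, had 182.7 CPM in grafted vein, 211 and 132.4 in distended vein, and 228.2 and 153.2 in control vein.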

How the data were processed

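RNA of single nuclei was captured in droplets and sequenced as 3' tags. The values used are UMI counts as the authors deposited them, unnormalized, 1 matrix for each library. The submitters' processing notes name Cell Ranger 7.0.0. No source used here gives the genome build, and no coordinates or sequences are printed. The 5 members and the 6 pathway lists were chosen with earlier results of these data known. The genes named are the members, list genes that passed a test (or a list's 3 with most UMIs), and the 5 most like each member of at least 100 UMIs.

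Features naming no gene (24, with 0.588% to 11.5% of UMIs) were left out. Barcodes with at least 100 detected genes were kept; the 13 mitochondrial genes held 0 UMIs, so no such filter acted. Counts were clustered without the members in scanpy 1.11.5 (10000 per nucleus, 2000 variable genes, 20 components, 15 neighbours, Leiden resolution 0.8). A cluster was named from at least 3 detected markers (3 UMIs and 2 times the rest) with a lead of 2, limits set after the data were seen. Scrublet marked 42 nuclei (0.613%), which were kept. No correction for RNA from outside nuclei was run.

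Counts were summed per library (at least 20 nuclei) and compared by the two-sided quasi-likelihood test of edgeR 4.0.16 (R 4.3.3), with filterByExpr and TMM factors, all groups in the same fit, which takes the spread of the single grafted library from the other 4. DESeq2 1.42.0 was an alternative. The fit was tested on simulated data. Libraries of the same number come from the same dog, per the titles; deviations of the dogs from their group means correlated at -0.32 in whole-vein, 0.00 in endothelial-like and 0.02 in fibroblast-like sums. Ratios carry exact 95% counting intervals, and limits for a count of 0 take 3 UMIs or nuclei. P-values measure the spread between these libraries.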

Additional observations from a re-analysis of the deposited data

How the results depend on the processing

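The member ratios depended on which distended library entered them. Leaving out each library in turn, the ratio of pooled HMGA2 levels in whole vein ran from 0.934 to 24.5 for distended against control, and in endothelial-like nuclei from 0.886 to 69.9 for grafted against distended. For IGF2BP2 it ran from 1.05 to 3.06 (grafted against distended) and 0.56 to 1.63 (distended against control) in whole vein, and from 0.648 to 3.94 in fibroblast-like nuclei (grafted against distended). Keeping the dominant features in the total gave 5.34 for IGF2BP2 in grafted against control and 1.45 in distended against control. These ratio alternatives, the crossed pairing, single-nucleus classing for the list counts, list medians without a library and thinning to 1000 UMIs were chosen after seeing the data. Of 121 ratio alternatives 111 moved by less than the spread of log2 levels within the distended or control pair, whichever was wider. A further 7 moved by more, and 3 changed direction from a main ratio whose interval excluded 1. A change of direction from a main ratio whose interval held 1 was not counted as such. The change of IGF2BP2 in distended against control to 1.45 is therefore not among the 3. For HMGA1 and HMGA2 the spread of log2 levels is wide, because the distended libraries differ so much. A shift of many fold can thus stay within it, and the 111 do not show that the ratios are stable.

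Numbers of pathway genes called moved in 27 of 105 alternatives, by a rule on counts that is not the one used for ratios. In grafted against control they were 2 in whole vein without the filter, where 1.07% of all genes passed. In endothelial-like sums they were 8 without the filter (2.33% of all genes) and 3 without the dominant features (2.57%). There DESeq2 called 1 (1.66% of all genes), and classing nuclei singly gave 0 (0%). In both populations they also moved when a library was left out. Leaving out a library also moved the other comparisons of endothelial-like sums, and distended against control in whole vein. In fibroblast-like grafted against distended they were 1 with RLE factors (2.45% of all genes) and 1 with nuclei classed singly (2.38%). They were 0 without the dominant features (1.11%) and 0 with DESeq2 (0.449%), and they moved when a library was left out. With the dog as a replicate block, endothelial-like sums gave 2 in grafted against distended (1.84% of all genes) and 9 in grafted against control (5.22%). Fibroblast-like grafted against distended gave 1 (1.56%), and the other counts did not move. The numbers of the control dogs were also crossed in the replicate block. In grafted against distended and against control, 1 and 5 list genes were then called in whole vein (4.51% and 10.3% of all genes). The same comparisons gave 1 and 7 in endothelial-like sums (2.28% and 5.61%) and 1 and 1 in fibroblast-like sums (3.01% and 3.84%). The cause of these changes was not tested. Without control dog 2, fibroblast-like sums rest on 53 control nuclei.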

Other observations

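In vein before grafting, IGF2BP2 was read in several clusters. Cluster 14, led by ADIRF and SELENOP, held IGF2BP2 in 2 of 30 nuclei of distended dog 1 (median 947 UMIs outside the dominant features) and in 5 of 35 nuclei of control dog 1 (median 2584). In cluster 6, led by ADAMTS18 and ENPP2, it was read in 4 of 265 nuclei of distended dog 1, at 18.4 CPM (5.99 to 43.0), and in 6 of 171 nuclei of control dog 2, at 108.6 CPM (46.9 to 214). The 6 HMGA2 UMIs of control vein lay in 3 nuclei, 2 of them in the macrophage/monocyte-like cluster 12.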
